A study of Macaca mulatta with 252 samples.

Results

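Layers 2 and 3 are the 2 upper neuron layers of the neocortex, lying one above the other, and this report sets layer 2 against layer 3 in 6 areas of the rhesus macaque that have a granular layer 4: the dorsolateral prefrontal cortex (DLPFC), the primary somatosensory (S1) and primary auditory (A1) cortex, the second visual area (V2), the middle temporal visual area (MT), and TE, an area of the temporal lobe. Members were the arrays titled layer 2 or layer 3 of these areas, each pair of layers coming from 1 area of 1 animal. There were 48 such arrays in 24 pairs, among 252 arrays of the series, of which 225 held dissected tissue. The remaining 4 neocortical areas (V1, whose layer 4 is subdivided, M1, the orbitofrontal cortex OFC and the anterior cingulate gyrus ACG) were left out and served only as a comparison at the end.

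The tissue came from 3 male and 3 female adult animals with no treatment or genotype given. The males are called A, B and C, and the females D, E and F. RNA was amplified and hybridised to Affymetrix Rhesus Macaque Genome arrays, 1 array per dissected piece. Each area had 4 pairs. Male C and female E gave all 6 areas, male A and female D gave 5, and male B and female F gave 1 each (DLPFC of male B and MT of female F), so that the value of each of these last animals rests on a single pair.

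Both layers hold excitatory neurons that send axons to other parts of the cortex. In primates the layer 3 cells tend to be larger and carry many of the long connections between areas, with layer 2 cells closer to the pial surface and reached by the inputs of layer 1. The inhibitory neurons also differ with depth: the VIP and related classes are known to favour the upper layers, and the parvalbumin class favours the middle ones. Myelinated fibres become denser with depth.

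Levels are log2 normalized intensities, so that a difference of 1 is a doubling; because each probe set has its own response, levels are compared between layers of a gene and not between genes. For each animal the areas were averaged within a layer, and layer 2 minus layer 3 was tested over the 6 animals with limma, with animal as a block. Of 14133 genes on the array, 10347 were tested. Their mean over the layer averages of the 6 animals was above 4.75, the median of all probe sets over the 48 arrays. A gene was called when its Benjamini-Hochberg adjusted p was under 0.05 and its log2 difference was at least 1. A fold change on this scale understates that of dim genes, since array background sets a floor. Errors after ± are standard errors of the fitted difference unless SD is written.

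One array went against its label. Each of the 48 arrays was set against the mean of the other animals' arrays of layers 2 to 6 in its area, over the 500 genes that varied most between those layers. In 47 of 48 arrays the labelled layer correlated best. The array labelled layer 3 of A1 in male A correlated at 0.80 with layer 5 of A1 and at -0.71 with layer 3. Its CUX2 level was 7.28, against 9.99 to 10.1 in the 3 other A1 layer 3 arrays and 6.70 to 7.30 in the 3 A1 layer 5 arrays. Its level of FEZF2, a transcription factor of deep projection neurons, was 9.38, against 4.69 to 5.56 and 8.96 to 9.40 in the same arrays. The label was kept in the values below, and the numbers of called genes between layers and between areas are given also without the A1 pair of male A. Of 37 gene lists, 34 had the same numbers of called genes without that pair; the exceptions were the deep layer and heparan sulfate enzyme lists, which lost HS3ST2, and the Wnt list, which gained FZD7. A second array, layer 2 of DLPFC in male B, had the lowest correlation with the other arrays of its group (0.935) while matching layer 2 best. Layer 3 of V2 in female D had the next lowest (0.958) and matched layer 3 best. Array medians lay between 4.72 and 5.00.

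Between the layers, 72 genes were higher and 108 lower in layer 2. These are 0.696% and 1.04% of the genes tested, and the 180 calls together are 1.74%. Without the A1 pair of male A the counts were 72 and 110, with 70 and 106 genes shared with the full set. Without that pair and without male B they were 89 and 90, with 71 and 89 shared. At adjusted p alone, 13.4% of the tested genes passed, 484 higher (4.68%) and 899 lower (8.69%). The median difference of all tested genes was -0.05. Of the 180 called genes, 177 had the same direction in all 6 animals and 114 in all 24 pairs; over all tested genes, 22.8% kept 1 direction in all 6 animals and 2.34% in all 24 pairs.

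**Figure D1:**
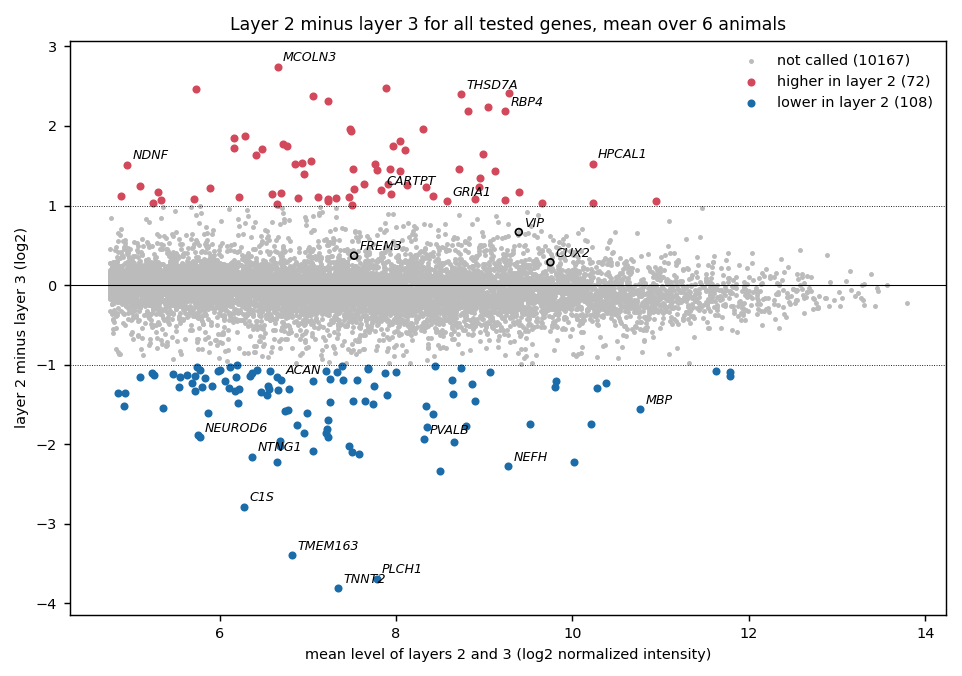
Layer 2 minus layer 3 (log2, y axis, mean over 6 animals) against the mean level of both layers (log2 normalized intensity, x axis) for the 10347 tested genes. Red points are the 72 genes called higher and blue points the 108 called lower in layer 2, dotted lines mark a log2 difference of 1, and open circles mark VIP, FREM3 and CUX2, which lie inside these lines.

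The 3 genes taken as markers did not reach the log2 minimum. VIP, the peptide of an interneuron class, ranged over 9.03, 9.85 and 10.7 (lowest, median and highest) in the 24 layer 2 arrays, against 7.88, 9.16 and 10.1 in the 24 layer 3 arrays. The arrays overlapped, yet layer 2 was higher in 23 of 24 pairs and the difference was 0.67 ± 0.08 (limma adjusted p = 0.000845), a fold of 1.59. Without the A1 pair of male A, whose layer 3 array gave the lowest VIP, CUX2 and FREM3 levels, the VIP difference was 0.61 ± 0.09. CUX2, a transcription factor of upper layer neurons, stood at 9.43, 9.97 and 10.4 in layer 2 and at 7.28, 9.70 and 10.1 in layer 3. It was high in both layers, with a difference of 0.29 ± 0.10 that did not pass (adjusted p = 0.0821); without the A1 pair of male A it was 0.20 ± 0.10. Over layers 2 to 6, CUX2 averaged 9.94, 9.75, 6.88, 5.60 and 4.28 in the 4 animals with several complete areas, which places both layers well above the deeper ones. FREM3, a matrix protein gene known from primate layer 3 neurons, ranged over 4.30, 7.99 and 9.82 in layer 2 and 3.45, 7.57 and 9.81 in layer 3, and its difference of 0.37 ± 0.24 did not pass (adjusted p = 0.36); without that A1 pair it was 0.26 ± 0.23. FREM3 spread more across areas than across the layers: in layer 3 it averaged 9.05 ± 0.61 (SD, n = 4) in DLPFC and 8.90 ± 0.83 in TE, against 5.17 ± 1.41 in V2. In DLPFC the FREM3 difference was below 0 in all 4 pairs (-0.80 to -0.28), and in A1 in 3 of 4 (-1.14 to -0.39), the exception being the pair of male A. It was above 0 in all 4 pairs of S1 (0.09 to 1.27) and of MT (0.05 to 1.50), and in 3 of 4 pairs of V2.

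Of the 12 largest increases among the named genes, MCOLN3, a lysosomal cation channel, led. Its level ranged over 5.65, 8.17 and 8.77 in layer 2, against 3.52, 5.41 and 7.48 in layer 3. Layer 2 was higher in all 24 pairs, with a wide spread between areas in layer 3, and the difference was 2.74 ± 0.36 (adjusted p = 0.00111), a 6.70-fold difference. THSD7A, a thrombospondin-domain protein, ranged over 9.23, 9.98 and 10.3 in layer 2, against 6.88, 7.73 and 9.02 in layer 3. Here every layer 2 array was above every layer 3 array (difference 2.40 ± 0.14, adjusted p = 2.48e-05). TERB1, a gene known from meiotic telomeres, ranged over 5.32, 7.07 and 7.74 in layer 2 and 3.55, 4.48 and 5.60 in layer 3, with the smallest error of these 12 genes (2.46 ± 0.08). The other TERB1 probe sets, under the level minimum, gave -0.05 and 0.02. MED14, a Mediator subunit, ranged over 9.36, 10.4 and 10.9 in layer 2 and 4.75, 8.45 and 9.19 in layer 3, with no overlap (2.42 ± 0.21). Its second probe set gave 2.04, but 2 others above the level minimum gave -0.43 and 0.17, so the MED14 difference holds for part of its probes.

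The other large increases had mixed roles. GBP1 (2.47 ± 0.33), an interferon-induced guanylate-binding protein with close relatives, ranged over 7.0, 9.33 and 10.1 in layer 2 and 3.35, 7.14 and 8.69 in layer 3. The other GBP1 probe sets, all under the level minimum, gave -0.19 to 0.05. ADAMTS3 (2.37 ± 0.25), a metalloproteinase, and MEPE (2.31 ± 0.34), a matrix phosphoglycoprotein first known from bone, followed. NEU1, a lysosomal sialidase, was 2.24 ± 0.21 higher by its brightest probe set, while its 2 other probe sets above the minimum gave -0.20 and -0.13. NPTX2, a secreted pentraxin that clusters AMPA receptors, ranged over 9.05, 9.91 and 10.7 in layer 2 and 5.84, 7.78 and 9.25 in layer 3 (2.19 ± 0.23). RBP4, the retinol carrier, was 2.19 ± 0.41 higher with a wide overlap, at 8.61 to 11.1 in layer 2 and 3.36 to 10.9 in layer 3. DACT1, a modulator of Wnt signalling, was 1.96 ± 0.16 higher with no overlap between the layers (7.86 to 9.02 and 5.55 to 7.25), and the transcriptional coregulator MN1 was 1.96 ± 0.15 higher.

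Among the named genes, the 4 largest decreases were larger in size than the largest increase. TNNT2, a troponin T gene best known from heart muscle, ranged over 3.65, 5.70 and 7.59 in layer 2, against 5.77, 9.34 and 10.4 in layer 3. It was lower in all 24 pairs by -3.81 ± 0.26 (adjusted p = 4.24e-05), a 14.1-fold difference; a second probe set gave -3.01 and a dim further one 0.12. PLCH1, a phospholipase C that makes inositol second messengers, ranged over 4.61, 6.31 and 7.75 in layer 2, against 8.53, 9.58 and 10.4 in layer 3. Every layer 2 array lay below every layer 3 array (-3.69 ± 0.23, adjusted p = 3.08e-05); its second probe set above the minimum, near that minimum at 5.30, gave -0.09. TMEM163, a zinc transporter of synaptic vesicles, stood at 3.95, 5.41 and 7.0 in layer 2 and at 6.47, 8.36 and 9.72 in layer 3 (-3.40 ± 0.29). C1S, a complement protease, was also fully apart, at 3.98, 4.88 and 6.05 in layer 2 and 6.64, 7.78 and 8.33 in layer 3 (-2.79 ± 0.13).

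Next in size came PCDHA11 (-2.34 ± 0.17), whose probe set may also read other alpha protocadherins because they share their last exons; its 2 other probe sets, both below the level minimum, gave -0.08 and 0.01. OTUD3 (-2.23 ± 0.17), a deubiquitinase, PLCL1 (-2.22 ± 0.20), a phospholipase C-like protein without enzyme activity, and RFTN2 (-2.08 ± 0.16), a lipid raft protein, were lower in all 24 pairs. Among all tested genes, 12 (0.116%) had every layer 2 array on 1 side of every layer 3 array: 5 higher (0.0483%; C1QL2, DACT1, MED14, MEIS2 and THSD7A) and 7 lower (0.0677%; BEND5, C1S, DCLK1, PHLDA2, PLCH1, PTPRD and TRHDE), some of them outside the rule for named genes and listed after their values were seen. Without the A1 pair of male A there were 14, with 5 higher and 9 lower, NTNG1 and PCDHA11 being those added.

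**Figure D2:**
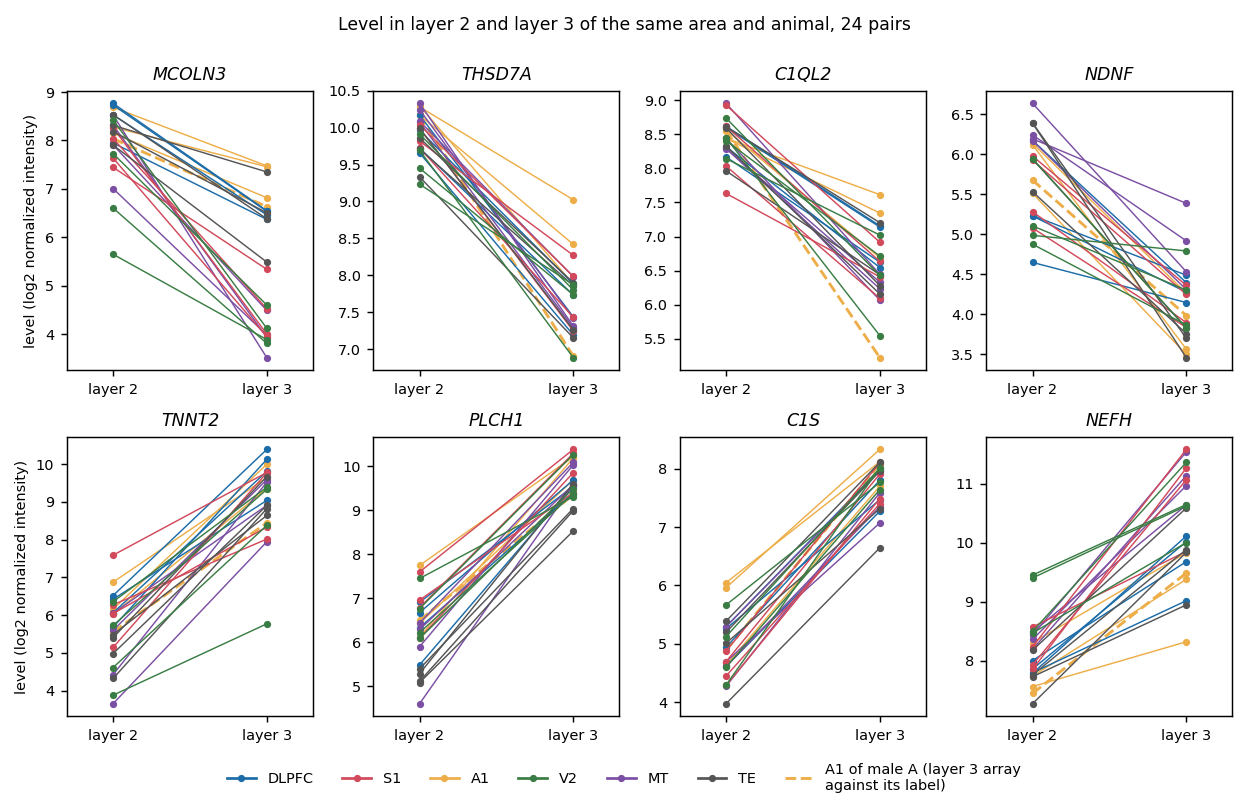
Levels (log2 normalized intensity, y axis) of 8 genes in layer 2 (left) and layer 3 (right); each line joins the 2 layers of 1 area and animal, 24 lines in all, coloured by area. MCOLN3, THSD7A, C1QL2 and NDNF fall along every line and TNNT2, PLCH1, C1S and NEFH rise along every line; the dashed line is the A1 pair of male A.

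Genes of the upper layer neuron list were higher in layer 2 or not called, and none was called lower. For this list and those below, the shares over all tested genes are 0.696% called higher and 1.04% called lower. At adjusted p alone these shares are 4.68% and 8.69%. Of 16 listed genes, 11 were on the array and all 11 were tested; 3 were higher, and the median difference was 0.32 (0.31 without the A1 pair of male A). HPCAL1, a neuronal calcium sensor, ranged over 10.3, 11.1 and 11.4 in layer 2 and 8.56, 9.68 and 10.4 in layer 3, higher in all 24 pairs (1.53 ± 0.17, adjusted p = 0.000521). RASGRF2, a calcium-dependent activator of Ras, was 1.05 ± 0.18 higher in all 24 pairs; the call was lost without female F (0.88) or without MT (0.84). CARTPT, which encodes a neuropeptide precursor, ranged over 6.47, 8.34 and 10.3 in layer 2 and 5.89, 7.13 and 9.78 in layer 3. It was higher in 21 of 24 pairs and 5 of 6 animals (1.19 ± 0.29, adjusted p = 0.023), and it lost the call when any of male A, male C, female D, female E or female F was left out (0.86 to 1.24), and without MT, where it was 0.73. PCDH8 (0.96) and LAMP5 (0.77) passed the adjusted p but not the log2 minimum.

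The list of layer 3 and corticocortical projection neurons moved the other way. Of 22 listed genes 14 were tested, 5 were lower and none was higher, with a median difference of -0.82, against -0.05 for all tested genes; 9 passed the adjusted p, all of them lower. NEFH, the heavy neurofilament of large axons, ranged over 7.27, 8.09 and 9.46 in layer 2, against 8.32, 10.1 and 11.6 in layer 3. It was lower in all 24 pairs by -2.28 ± 0.17 (adjusted p = 7.61e-05). NTNG1, a netrin-related cell surface protein, was lower by -2.16 ± 0.16, at 4.43, 5.48 and 6.36 in layer 2 and 5.30, 7.39 and 8.26 in layer 3; the array labelled layer 3 of A1 in male A gave that lowest layer 3 value, and without that pair the layers did not overlap. NEUROD6, a basic helix-loop-helix factor of excitatory neurons, was -1.91 ± 0.12, lower in 22 of 24 pairs and with a wide range in layer 3 (3.36 to 9.12), the highest value being that of the array labelled layer 3 of A1 in male A; without that pair the difference was -1.79 ± 0.13. BEND5, a transcriptional regulator, was lower with no overlap (-1.46 ± 0.16), and KCNA2, an axonal potassium channel, was lower in all 24 pairs (-1.23 ± 0.15). VAMP1, ANXA6, SCN1A and MET lay between -0.55 and -0.86, under the log2 minimum, and TAFA1 (0.02) and FREM3 (0.37) did not pass.

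In the list of layer 4 neurons, 3 of 6 tested genes were lower and none higher. PVALB, the calcium-binding protein of the fast-spiking interneuron class, is also on this list. Its level ranged over 5.16, 7.63 and 9.47 in layer 2, against 7.83, 9.40 and 10.2 in layer 3, lower in all 24 pairs (-1.94 ± 0.20, adjusted p = 0.000355). TSHZ2, a zinc finger transcription factor, was -1.34 ± 0.18 and the potassium channel gene KCNH5 -1.07 ± 0.11. Of 19 tested deep layer genes, 2 were lower and none higher, with a median of 0.02. CRYM, a thyroid hormone-binding protein, was -1.75 ± 0.27. HS3ST2, a heparan sulfate sulfotransferase, was -1.03 ± 0.15, but the array labelled layer 3 of A1 in male A had the highest layer 3 level (9.70); without that pair the difference was -0.92 ± 0.13 and HS3ST2 was no longer called.

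Interneuron genes were called in both directions. Of 15 tested genes of the caudal classes, NDNF was called higher and SV2C lower, a further 6 passed the adjusted p on the higher side, and the median was 0.30. NDNF, a secreted factor of neurogliaform cells, ranged over 4.65, 5.93 and 6.64 in layer 2, against 3.46, 4.20 and 5.39 in layer 3, and was higher in all 24 pairs (1.51 ± 0.19, adjusted p = 0.000845). Much of its layer 3 range lies below the level minimum of 4.75, so that the size of this difference is limited by background. NR2F2 (0.90), TAC3 (0.87), PROX1 (0.86), VIP, IGF1 (0.66) and KIT (0.49) were higher under the log2 minimum. SV2C, a synaptic vesicle protein, was -1.36 ± 0.18, and PENK, CRH and HTR3A were lower at adjusted p alone (-0.65 to -0.33). None of 4 tested general interneuron genes was called: DLX1, a homeobox factor (0.49), and ELAVL2, an RNA-binding protein (-0.53), passed the adjusted p, and GAD1 (0.20) and GAD2 (-0.20), which make GABA, did not. Of 5 tested genes of the medial classes only PVALB was called. In bulk tissue of this kind, fewer cells of a type and less RNA per cell cannot be told apart, here and in the lists below.

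**Figure D3:**
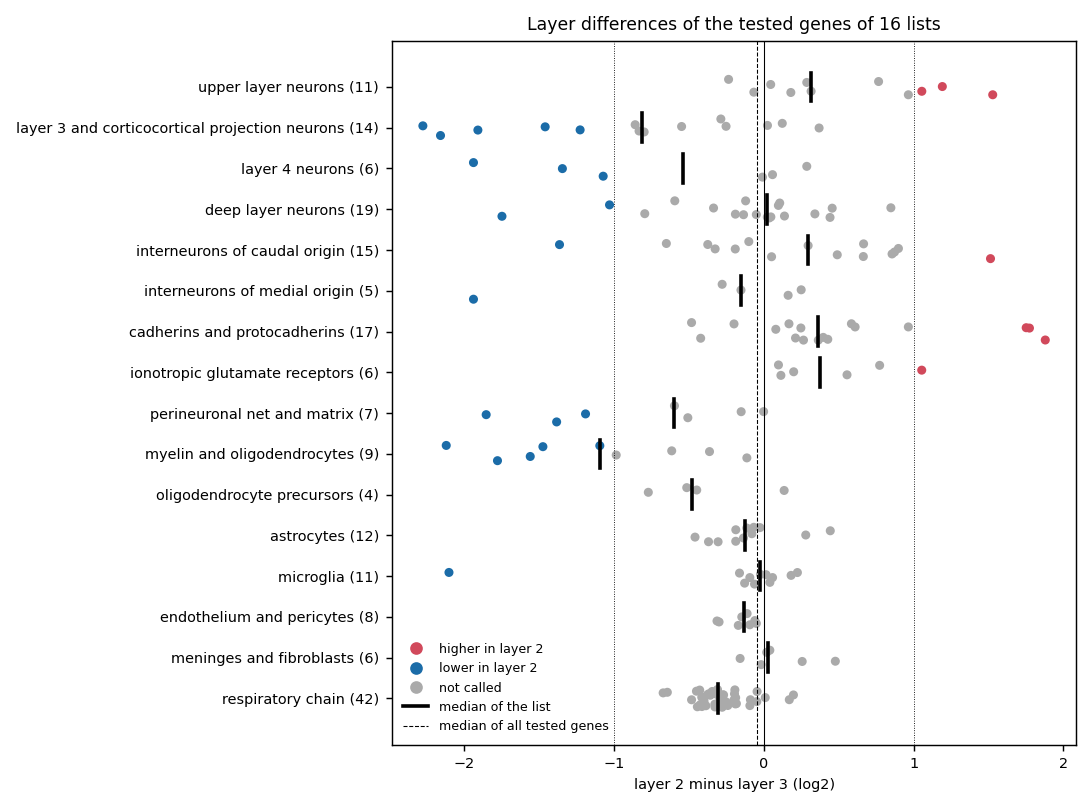
Layer 2 minus layer 3 (log2, x axis, mean over 6 animals) for each tested gene of 16 lists (rows, number tested in brackets). Red and blue points were called higher and lower in layer 2, grey points were not called, thick bars are list medians and the dashed line is the median of all tested genes (-0.05). The layer 3, layer 4, deep layer, medial interneuron, matrix, myelin and microglia lists have called genes on the lower side alone.

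Myelin genes were lower in layer 2 or not called. Of 9 tested, 5 were called lower, none higher, and the median was -1.10; 7 passed the adjusted p. MBP, the myelin basic protein, ranged over 8.37, 10.2 and 11.3 in layer 2, against 10.0, 11.6 and 12.2 in layer 3, lower in all 24 pairs (-1.56 ± 0.15, adjusted p = 0.000222). ANLN (-2.12 ± 0.17), GPR37 (-1.78 ± 0.15), UGT8 (-1.47 ± 0.13), which makes myelin galactolipids, and ENPP2 (-1.10) were lower as well. The mean level of the 9 genes lay between 7.20 and 8.30 over the 6 animals in layer 2 and between 8.68 and 9.47 in layer 3, without overlap. CNP (-0.11) and CNDP1 (-0.36) did not pass. ERBB3, a neuregulin receptor, and its ligand NRG1 were also lower (-1.26 ± 0.14 and -1.17 ± 0.14); a second ERBB3 probe set gave 0.09. The part of the myelin difference in other lower genes was not tested.

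In the 6 lists of other non-neuronal cell types, 1 of 43 tested genes was called (2.33%, against 1.74% of all tested genes). None of 12 astrocyte genes, 8 endothelial and pericyte genes, 6 meningeal and fibroblast genes, 4 oligodendrocyte precursor genes or 2 blood genes was called, with medians of -0.12, -0.13, 0.03, -0.48 and -0.06. At adjusted p alone, ALDOC and GJB6 were lower among astrocyte genes, SOX10 and OLIG2 were lower among precursor genes, and ALDH1A2 was higher among meningeal genes. The mean meningeal level was 6.19 to 6.37 over animals in layer 2 and 6.06 to 6.27 in layer 3. CD53, a leukocyte tetraspanin, was the only called gene of 11 microglial ones. Its brightest probe set ranged over 5.35, 6.36 and 8.06 in layer 2, against 5.87, 8.27 and 10.4 in layer 3 (-2.10 ± 0.25), with -0.88 and 0.08 from its other probe sets, while the other 10 microglial genes lay between -0.16 and 0.22.

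Of 7 tested genes of the perineuronal net and matrix, 3 were lower and none higher, with a median of -0.60. Perineuronal nets are matrix coats that surround parvalbumin cells in particular. HAPLN4, a link protein of these nets, ranged over 5.25, 6.10 and 7.24 in layer 2, against 6.04, 7.97 and 9.05 in layer 3, lower in all 24 pairs (-1.85 ± 0.18, adjusted p = 0.000256). SPP1, a secreted phosphoprotein, was -1.38 ± 0.16. ACAN, the proteoglycan aggrecan, was -1.19 ± 0.25 (adjusted p = 0.0136) and lower in 5 of 6 animals; male B, with its single DLPFC pair, was the exception (0.29), and the ACAN call was lost without male A, without female F or without MT (-1.02 to -1.09). Its other probe sets gave -0.93 and 0.25. VCAN and HAPLN1 did not pass.

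Cell surface genes were called in both directions. In a list of cadherins and protocadherins that does not hold PCDHA11, 3 of 17 tested genes were higher and none lower, with a median of 0.36: FAT4 (1.88 ± 0.14), CDH9 (1.77 ± 0.17) and PCDH18 (1.75 ± 0.08), each higher in all 24 pairs. PCDH18 ranged over 7.67, 9.0 and 9.46 in layer 2, against 5.85, 7.20 and 8.42 in layer 3. Of 36 tested synaptic adhesion genes, 2 were higher and 1 lower. C1QL2, a secreted C1q-domain organiser of synapses, was fully apart at 7.63, 8.44 and 8.95 in layer 2 and 5.22, 6.50 and 7.61 in layer 3 (1.93 ± 0.16). LRRTM4, a postsynaptic adhesion protein, was 1.23 ± 0.14 higher, and PTPRD, a receptor phosphatase of presynaptic membranes, was lower with no overlap (-1.18 ± 0.15). The PTPRD call was lost in the 4 animals with 5 or 6 areas (-0.97) and in S1, A1 and TE alone (-0.81). Of 46 axon guidance genes NTNG1 alone was called, against 1.74% of all tested genes. At adjusted p alone 4 were higher and 5 lower, where 13.4% of all tested genes passed. Among them ROBO2 (0.77), SLIT2 (0.75), SEMA5A (-0.83) and SEMA6D (-0.90) lay under the log2 minimum. SULF1, which trims sulfates from heparan sulfate, was -1.54 ± 0.16 and lower in all 24 pairs.

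Among 6 ionotropic glutamate receptor genes, GRIA1, an AMPA receptor subunit, was called higher (1.05 ± 0.11, adjusted p = 0.00042). It ranged over 8.37, 9.46 and 10.2 in layer 2, against 6.67, 8.21 and 9.43 in layer 3, higher in all 24 pairs; a dim second probe set gave 0.56. No GABA receptor gene of 5 was called. Of 35 potassium channel genes KCNG3, a silent subunit that modifies other channels, was higher (1.52 ± 0.11) and KCNA2 and KCNH5 were lower. SCN3A, a sodium channel, was 1.08 ± 0.17 higher, and the call was lost without female F (0.88) or without MT (0.84). Of 20 neuromodulator receptor genes, HTR2A, a serotonin receptor, was lower (-1.13 ± 0.20), and of 19 neuropeptide receptor genes SSTR1, a somatostatin receptor, was higher (1.22 ± 0.19). The SSTR1 call was lost without female F (0.99) or without MT (0.89). The HTR2A call was lost without male B (-0.87) and without DLPFC (-0.80), among other settings.

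Signalling and transcription genes gave calls in both directions. MEIS2, a homeobox transcription factor, was higher with no overlap, at 9.33, 9.96 and 10.3 in layer 2 and 7.48, 8.64 and 9.09 in layer 3 (1.43 ± 0.19, adjusted p = 0.00144), while NEUROD6 and TSHZ2 were the 2 lower genes of the 43 tested transcription factors. INHBA, an activin subunit and activity-regulated gene, was 1.54 ± 0.10 higher in all 24 pairs. Of the 19 activity-regulated genes only NPTX2 and INHBA were called; FOS (-0.17), ARC (-0.07) and NPAS4 (-0.18) did not pass. SYT17, a synaptotagmin, was 1.34 ± 0.18 higher, with 1.34 from a second probe set. CADPS2, a priming factor for dense-core vesicles, was -1.30 ± 0.12 and lower in all 24 pairs, and DGKG, a diacylglycerol kinase, was 1.05 ± 0.13 higher. Of 42 respiratory chain genes none was called, but 9 were lower at adjusted p alone, none was higher, and the median was -0.31. Over all tested genes, 8.69% were lower and 4.68% higher at adjusted p alone. In a list of Wnt ligands and modulators that does not hold DACT1, none of 19 tested genes was called; without the A1 pair of male A, FZD7, a Wnt receptor, was higher.

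Several calls depended on 1 animal, 1 area or the choice of probe set. Without female F or without MT, GRIA1 (0.98 and 0.95) and DGKG (0.92 and 0.93) fell under the log2 minimum, as did KCNH5 without male B (-0.99). HS3ST2 lost its call without male A, male C or female F, and without S1, A1 or MT (-0.99 to -0.88). With the mean of all probe sets of a gene, GBP1, TERB1, NDNF, SULF1 and NRG1 fell under the level minimum and were not tested. A further 14 named genes were tested there and were no longer called. Among them were KCNG3 (0.85), GRIA1 (0.81), RASGRF2 (0.75), MED14 (0.73), NEU1 (0.64) and SSTR1 (0.61) on the higher side. On the lower side were CD53 (-0.97), PLCH1 (-0.86), PCDHA11 (-0.80), TSHZ2 (-0.70), ACAN (-0.62), KCNA2 (-0.61), KCNH5 (-0.57) and ERBB3 (-0.55). In S1, A1 and TE alone, 10 named genes were no longer called, with the smallest values in NRG1 (-0.67), HTR2A (-0.76), CARTPT (0.80) and SSTR1 (0.81).

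Over the full depth of the cortex, most genes higher in layer 2 had their highest level there, and most genes lower in layer 2 had their lowest level there. Profiles were averaged over areas with layers 2 to 6 in 4 animals, and the array that went against its label did not enter them. Because layer 2 is part of both comparisons, these counts describe the called genes and test nothing. Of the 72 higher genes, layer 2 was the highest of the 5 layers in 65, against 27.2% of all tested genes. Of the 108 lower genes, layer 2 was the lowest in 91 (27.7% of all tested genes), and the highest layer was spread over layers 3 to 6. Layer 3 was the highest in 22.2% of them, layer 4 in 21.3%, layer 5 in 22.2% and layer 6 in 34.3%. The same layers were the highest in 20.1%, 16.7%, 13.2% and 22.8% of all tested genes.

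Several shapes stood out. TERB1 averaged 6.88, 4.44, 3.71, 3.44 and 3.93 in layers 2 to 6, and NDNF 5.74, 4.13, 4.25, 4.10 and 3.99, both with layer 2 alone raised. PCDH18 declined in steps, at 8.83, 7.19, 5.91, 5.43 and 5.10. ADAMTS3 was high at both edges and lowest in layer 3, at 7.92, 5.59, 7.30, 6.69 and 8.59, and NEU1 had 10.2, 8.13, 8.26, 9.50 and 9.14. NTNG1 peaked in layer 3, at 5.54, 7.49, 6.66, 5.45 and 4.32, as did CD53, at 6.63, 8.36, 7.26, 6.01 and 5.87. PVALB (7.73, 9.35, 9.96, 8.98 and 7.16) and C1S (4.94, 7.71, 9.0, 8.43 and 7.06) peaked in layer 4. MBP increased in every step, from 10.2 and 11.5 in layers 2 and 3 to 12.1, 12.4 and 12.8 in layers 4 to 6.

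**Figure D4:**
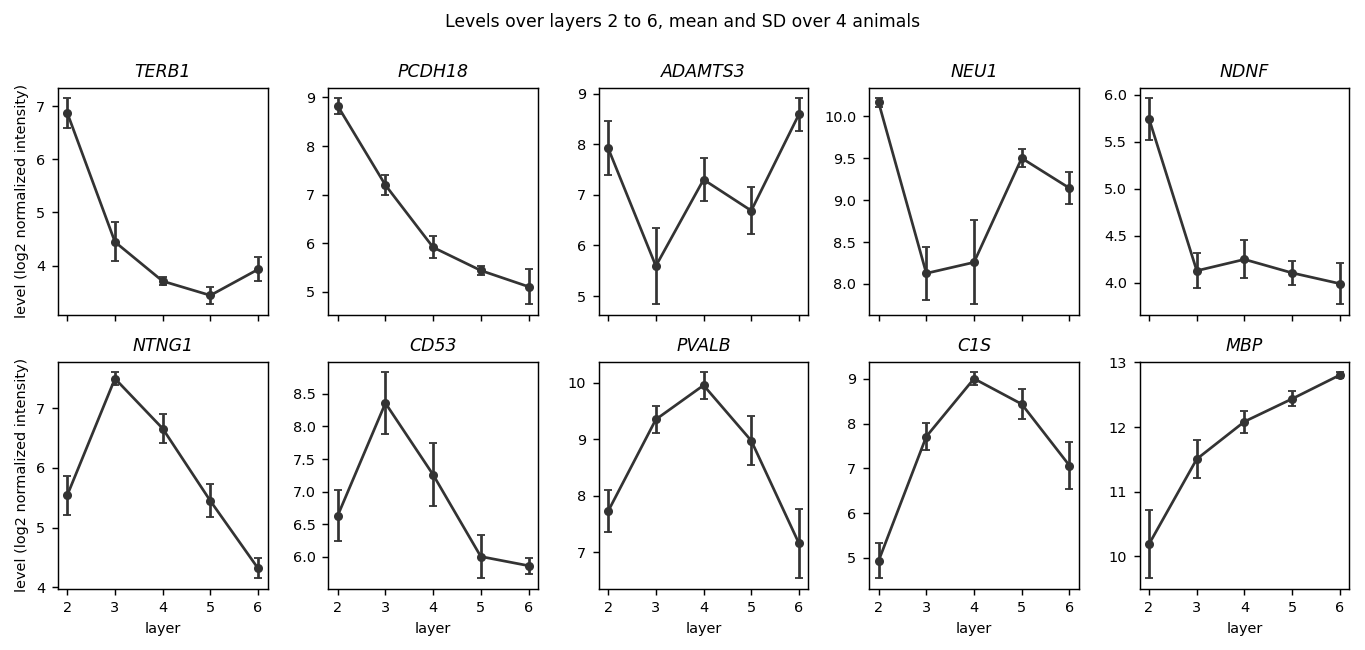
Mean level (log2 normalized intensity, y axis; bars are SD over 4 animals) in layers 2 to 6 (x axis) of 10 called genes. TERB1, PCDH18, ADAMTS3, NEU1 and NDNF drop between layers 2 and 3; NTNG1 and CD53 are highest in layer 3, PVALB and C1S in layer 4, and MBP in layer 6.

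The layer difference itself varied between areas for a small set of genes. In the 24 pairs, with area and animal in the fit, a moderated F test over the 6 areas called 35 of 10284 tested genes (0.34%), where the range of the fitted area differences had also to reach 1. Without the A1 pair of male A, 42 genes were called, of which 27 were among the 35. In that fit the range of MET, named after its values were seen, was second to that of RBP4 (3.12). Its fitted difference ran from 0.78 in DLPFC to -2.34 in A1. SSTR1 was also called there, from 2.09 in MT to -0.37 in A1. The 35 calls rest on the 4 animals with several areas. Without male C none was called (673 genes with an unadjusted p under 0.05), without female E 3, without male A 18 and without female D 21. The labels do not say which array belonged to which of the 3 amplification batches. The hybridisation control probes varied more between arrays in DLPFC, V2 and MT (SD 0.21) than in S1, A1 and TE (SD 0.071), and no label ties these sets of areas to a batch. No gene was called by limma among areas within either set, where each fit has 3 areas and 12 pairs, while 502 and 777 genes had an unadjusted p under 0.05 in S1, A1 and TE and in DLPFC, V2 and MT.

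RBP4 had the widest range, 3.77 (adjusted p = 0.00156). Its difference was 4.32 ± 1.69 in V2, 3.58 ± 0.77 in MT and 2.42 ± 0.93 in S1 (SD, n = 4 each), against 0.96 ± 0.61 in A1, 0.90 ± 0.67 in TE and 0.38 ± 0.15 in DLPFC. The A1 pair of male A gave the highest RBP4 value of A1 (1.73, against 0.46 to 1.16 in the others). Layer 2 levels of RBP4 lay between 8.61 and 11.1 in all 6 areas. Layer 3 levels were 3.36 to 7.22 in V2 and 4.57 to 7.72 in MT, against 9.88 to 10.9 in DLPFC. NPTX2 was likewise 3.43 ± 0.86 higher in V2 and 3.10 ± 0.45 in MT, against 0.94 ± 0.21 in DLPFC (range 2.54). MCOLN3 was highest in MT (3.96 ± 0.90) and S1 (3.39 ± 0.91) and lowest in A1 (1.19 ± 0.26). Its layer 3 level averaged 3.98 in MT, 4.46 in S1 and 4.11 in V2, under the level minimum of 4.75. The lowest RBP4 layer 3 levels in V2 and MT were also under it, so background limits the size of these differences. Without the A1 pair of male A the moderated F adjusted p of MCOLN3 was 0.0510 and it was not called.

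The size or direction of the difference varied between areas for other genes too. TMEM200A, a membrane protein, was 2.23 ± 0.49 higher in layer 2 of V2 and 2.18 ± 1.42 in MT, against -0.14 to 0.44 in the other 4 areas. ADAMTS8, a metalloproteinase, was 1.67 ± 0.92 in V2 and 1.66 ± 0.53 in MT, against -0.38 ± 0.25 in DLPFC. BDNF, the neurotrophin, changed sign: layer 2 was higher in all 8 pairs of V2 and MT (1.25 ± 0.56 and 0.95 ± 0.23) and lower in all 8 pairs of A1 and DLPFC (-0.74 ± 0.35 and -0.93 ± 0.35), so that its mean over animals was 0.16 ± 0.22. The A1 pair of male A, whose layer 3 array went against its label, gave the lowest BDNF value of A1 (-1.11, against -0.85 to -0.27 in the others). CRYM was lower by -2.98 ± 1.02 in MT and -2.55 ± 0.86 in V2, against -0.97 ± 0.30 in DLPFC and -0.74 ± 0.06 in A1. CAV1, the caveolar coat protein, was the converse: 1.71 ± 0.93 in DLPFC, against -0.29 ± 0.83 in V2. The CARTPT difference was 2.27 ± 0.40 in MT and 1.88 ± 0.40 in V2, against 0.22 ± 0.51 in DLPFC.

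**Figure D5:**
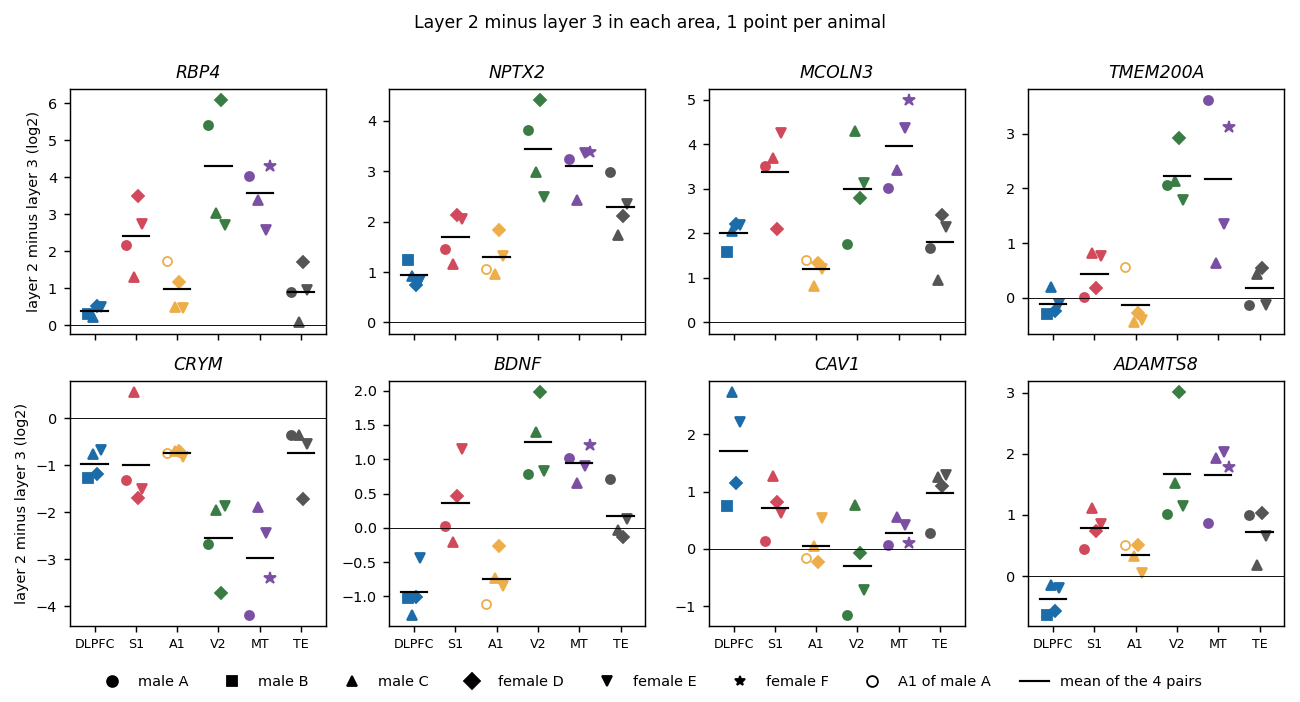
Layer 2 minus layer 3 (log2, y axis) in each of 6 areas (x axis) for the 8 called genes with the widest range over areas; each point is 1 animal, bars are the means of the 4 pairs and the open circle is the A1 pair of male A. RBP4, NPTX2, TMEM200A, BDNF and ADAMTS8 are highest in V2 and MT, CRYM is lowest there, and CAV1 is highest in DLPFC.

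Each area was also set against the mean of the other 5 in the same fit. V2 had most calls, with 7 genes whose difference was higher and 17 whose difference was lower than elsewhere, and 8 and 17 without the A1 pair of male A. A1 had 2 and 5, and without that pair 3 and 3, SHISA2 being the only gene in both sets. DLPFC had 1 and 1 (2 and 3 without that pair), MT 2 and 0 (1 and 0 without it), TE 2 and 0, and S1 none by limma (298 genes with an unadjusted p under 0.05). The RBP4 difference in V2 was 2.63 ± 0.34 above that in the other areas (limma adjusted p = 0.00275). Spiked poly-A control transcripts averaged 8.94 to 10.2 in the V2 layer 2 arrays and 9.26 to 9.40 in its layer 3 arrays. In the other areas they reached 9.23 and 9.13. Whether the V2 calls follow these levels, or the V2 layer 3 array of female D, was not tested. In TE, PDE1A, a calcium-dependent phosphodiesterase, was 1.50 ± 0.18 above the other areas (adjusted p = 0.000873); PDE1A was named after its values were seen.

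The 6 areas were last set against the 4 left-out ones, over the 5 animals with both. ADAMTS3 alone of 10319 genes was called (0.00969%). Its layer difference averaged 2.09 in the 6 areas and 0.52 in the left-out areas, higher by 1.57 ± 0.17 in 5 of 5 animals (adjusted p = 0.0193). In V1 its level averaged 4.78 in layer 2 and 4.11 in layer 3, and in V2 5.96 and 3.54, so that values near or below the level minimum of 4.75 limit the difference in both. By area, layer 2 of ADAMTS3 exceeded layer 3 by 3.22 in MT, 3.00 in TE, 2.42 in V2, 2.19 in S1, 1.49 in DLPFC and 1.16 in A1, against 1.39 in M1, 0.78 in OFC, 0.67 in V1 and -0.24 in ACG. The call was lost without male A, female D or female E (1.39 to 1.59), and without the A1 pair of male A the difference was 1.65 ± 0.18 (adjusted p = 0.0215). Of 30 arrays of the left-out areas, layer 3 of M1 in male C was nearer to layer 2 of M1 than to layer 3 (r = 0.56 and 0.02); without that pair the difference was 1.52 ± 0.19 and the adjusted p 0.0723. A total of 274 genes had an unadjusted p under 0.05 in this comparison.

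Spiked poly-A control transcripts, which follow amplification and labelling, are the only such measure used here. They averaged 8.73 in layer 2 and 8.82 in layer 3, a difference of -0.09 ± 0.40 (SD, n = 6 animals) with an exact sign-flip permutation p = 0.625 (two-sided, smallest possible 0.03125). The difference was -0.65 in male B and -0.49 in female F, and between 0.02 and 0.37 in the other 4 animals. With the poly-A level as a covariate, 77 genes were higher and 100 lower.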

How the data were processed

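Per the file headers, RMA was run by the authors in Matlab within each amplification batch and scaled each probe set on whole brain control samples shared by the batches; the deposited values are log10 normalized intensities. They were multiplied by 3.32 to give log2. Of 52865 probe sets, 24969 had exactly 1 symbol in the platform annotation and were kept (361 had several, 27535 none), and each of 14133 genes took its probe set with the highest mean. Columns of 27 control samples were not used. Models were fitted with limma 3.58.1 in R 4.3.3, with data.table version 1.17.8, animal as a fixed block and Benjamini-Hochberg adjustment. They were also run on simulated arrays with planted changes and independent errors. These held no array against its label, so that run tests the fitting code alone. Precision is limited by how many animals and arrays there are, and p-values measure the spread between the animals, or for areas between the 24 pairs, of this study.

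The pairing comes from the animal codes in the labels. After removal of group means, layers 2 and 3 of 1 animal and area correlated at a median r of 0.25 (24 pairs, lowest -0.35). Arrays of 1 animal in different areas correlated at a median of 0.22, so the value says little about pairing by area. Arrays of different animals in 1 area gave -0.08, but removal of group means by itself pushes this value below 0, so it tests nothing. No arrays were identical (highest correlation 0.990).

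Named genes were the 12 largest called increases and decreases with 1 direction in all 6 animals, up to 4 called members of each of 37 gene lists, the 3 markers, and for areas the 8 called genes of widest range, together with named genes called there. Symbols that begin with LOC, which 6 called genes had, were passed over in choosing the largest changes. One list, of metabotropic glutamate receptors, had no tested gene. The members, lists and rules were chosen with earlier results of these data known.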

Additional observations from a re-analysis of the deposited data

Results flagged for a closer look

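Among 66 results tested over the 6 animals, 5 had 1 animal far from the others. Chance alone gives about 1 in 20 where the 6 values are alike in kind. HTR2A was -2.41 in male B, against -1.20 to -0.69 in the others. In female F, whose only pair is from MT, LRRTM4 was 2.05 (others 0.78 to 1.18), NEU1 3.50 (1.55 to 2.18), SCN3A 2.09 (0.67 to 1.16) and SYT17 2.46 (1.00 to 1.44). Both animals rest on 1 pair from 1 area, while the other 4 values are averages over 5 or 6 areas. The flags therefore cannot tell an outlying animal from an area. In DLPFC the other HTR2A pairs gave -2.31 in female D, -0.68 in male C and -0.78 in female E. In the other MT pairs, NEU1 was 2.28 to 3.37, LRRTM4 1.18 to 1.61, SCN3A 0.45 to 1.73 and SYT17 1.17 to 1.77. The poly-A differences of male B and female F were the lowest of the 6.

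The layer difference varied between areas, by the F test over areas, in 11 of the named genes. The range of the fitted area differences was 3.77 for RBP4, 2.54 for NPTX2, 2.38 for MCOLN3, 2.37 for TMEM200A, 2.30 for CRYM, 2.19 for BDNF, 2.16 for CAV1, 2.11 for ADAMTS8, 1.98 for CARTPT, 1.71 for NEU1 and 1.37 for SYT17. Between the 6 areas and the left-out ones, ADAMTS3 differed by 1.57.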

How the results depend on the processing

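The counts of 72 higher and 108 lower genes stayed within 1.5 times under all alternatives but 3: at adjusted p alone they were 484 and 899, and with the filter at the 75th percentile 66 genes were lower. Leaving out 1 animal gave 55 to 90 higher and 92 to 121 lower. With no replicate block they were 71 and 102. The 4 animals with at least 5 areas gave 77 higher and 78 lower. Animals weighted by their number of areas gave 77 and 84. The surplus of lower over higher genes was thus small when both animals with a single pair were left out or given less weight. Leaving out male B alone gave 90 higher and 92 lower. Leaving out female F alone gave 55 higher and 98 lower. The surplus remained with no replicate block. The mean of all probe sets of a gene gave 49 and 72, of which 47 and 71 were among the full calls. Areas S1, A1 and TE alone gave 79 and 80, and DLPFC, V2 and MT alone 71 and 109. For the named genes, 66 of 1554 recomputed values lost the call, none gained it and none changed sign. A named gene that fell under the level minimum in a setting gave no value there and is not counted.

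The 35 area-dependent genes were 35 with no replicate block (27 shared), 0 within either set of 3 areas, 35 at adjusted p alone, and 0 to 36 when 1 animal was left out. Of the granular minus left-out areas, 1 gene was called; with limma none was with no replicate block (350 genes at an unadjusted p under 0.05) or without the M1 pair of male C (265), and 0 to 3 were when 1 animal was left out. Alternatives that leave out the A1 pair of male A, male B with it or the M1 pair, or that add the poly-A covariate, were chosen after seeing the data. The causes of these shifts were not tested.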
